A study of Columba livia with 6 samples.

Results

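The enzymes that make cholesterol and isoprenoids were examined in the ovaries of 6 female domestic pigeons (Columba livia), 3 of high egg production (HP) and 3 of low egg production (LP). A locus was taken as a member if its KEGG annotation in the deposited table named the map of steroid biosynthesis (00100) or of terpenoid backbone biosynthesis (00900). The rule gave 46 of 34346 loci, with 23 on each map and 0 on both, and it used no measured value. By their descriptions 37 members are enzymes of these maps, 6 are relatives of such enzymes and 3 are other proteins (ZNF185, BCAS1 and the C5orf63-like locus CUNH5orf63). IDI1, FNTA and FNTB carry only a numbered locus name in the table, and their symbols were taken from RefSeq by gene ID.

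Each library came from the whole ovary of 1 bird, 2 years old and sexually mature, with no treatment in either group. The birds were the extremes of a flock of the same genetic background, so the groups differ in laying record and in no introduced allele or agent. Ribosomal RNA was depleted from total RNA before sequencing. The ovaries are called HP1, HP2 and HP3, and LP4, LP5 and LP6, after the numbers in their labels. The question put to these genes was whether their RNA levels differed between HP and LP.

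Cholesterol and the isoprenoids start from the same trunk. Acetyl-CoA units are joined and reduced to mevalonate, and mevalonate is phosphorylated and decarboxylated to the isoprene units that build farnesyl diphosphate. From there one branch leads through squalene and lanosterol to cholesterol, while others give the side chain of coenzyme Q, the dolichol of glycoprotein synthesis and the lipid anchors of prenylated proteins. The sterol branch is under feedback control by the SREBP transcription factors, which are held back when membrane sterol is high. In the ovary, cholesterol is the precursor of all steroid hormones, and it can be made in the cell, taken up from lipoproteins or released from stored esters. In laying birds the liver secretes the lipoproteins that are deposited in the yolk.

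Total counts were between 97875183 and 108669967 per ovary, and levels are given as CPM, the counts scaled to a common library size by the trimmed mean of M-values (TMM). Markers of granulosa cells and oocytes were present in every ovary, with summed levels of 666 to 1188 CPM in HP and 965 to 1215 CPM in LP for granulosa cells, and of 249 to 388 CPM and 242 to 333 CPM for oocytes. Some markers on these lists were near 0: the granulosa marker INHA lay at 0.179 to 0.999 CPM, and the oocyte marker ZP1 had 0 counts in LP6. Of the 4 theca markers only LHCGR was matched by name. HP2 stood apart in kidney markers (606 CPM summed over 8 loci, against 73.5 to 116 CPM in the other ovaries) and in APOB (488 CPM at its larger locus, against 0.327 to 5.31 CPM). APOB was on the liver list, which was mixed in HP2. The smaller APOB locus (4.21 CPM) and ALB (4.90 CPM, against 2.53 to 4.62 CPM) were highest in HP2. FGG and AHSG were lowest there (0.476 and 0.189 CPM), and FGA and FGB were not highest there. LP5 stood apart in smooth muscle markers (2599 CPM, against 299 to 672 CPM in HP and 389.9 and 1221 CPM in the other LP ovaries). DES among them was lower in HP at an unadjusted p under 0.05 by edgeR. At that limit 1 of 11 granulosa loci, a GATA4 locus, was also lower in HP. The other GATA4 loci did not pass it, with log2 fold changes, HP minus LP, of -0.30, -0.16, -0.05 and 1.51. All GATA4 loci overlap other loci. Of 7 oocyte loci 1 was higher (ZP1, 17.1 CPM in HP2 and at most 0.111 CPM elsewhere), and both APOB loci were higher. Over all tested loci 4.74% were called higher and 3.5% lower. In whole ovaries, fewer cells of a type and less RNA per cell cannot be told apart.

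As a group the members showed no common direction between HP and LP. Of the 42 members that passed a mean of 0.1 FPKM (fragments scaled for locus length and library depth), the log2 fold change, HP minus LP, was above 0 in 18 and below 0 in 24, with a median of -0.05. Over all 28274 loci that passed, the median was -0.01, and 49% (13841) lay above 0. GGPS1, PDSS2, ZNF185 and the vitamin D 24-hydroxylase locus LOC102098516 were higher in HP at an unadjusted p under 0.05 by edgeR's quasi-likelihood test, and 0 members were lower. These 4 are 9.52% of the tested members, against 8.24% of all tested loci called in either direction, and 4.74% of all loci were called higher and 3.5% lower.

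After Benjamini-Hochberg adjustment over all tested loci, 0 members passed 0.05 by edgeR's quasi-likelihood test, against 0.0106% of all loci (3 of 28274), and adjusted p of the members was between 0.551 and 0.991. By DESeq2 1 member, ZNF185, passed an adjusted p of 0.05, together with 385 loci in all. Only ZNF185 and LOC102098516 also differed by at least 1 on the log2 scale of mean FPKM, where 3.11% of all loci passed both limits in either direction and 2.09% with HP higher. HP and LP levels did not overlap in 3 of 42 members (7.14%), GGPS1 and ZNF185 with HP higher and the ZMPSTE24 locus with HP lower, against 14.6% of all tested loci (7.38% with HP higher and 7.17% with HP lower). An exact permutation test of a single locus over these 6 ovaries cannot give a two-sided p below 0.1.

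**Figure D1:**
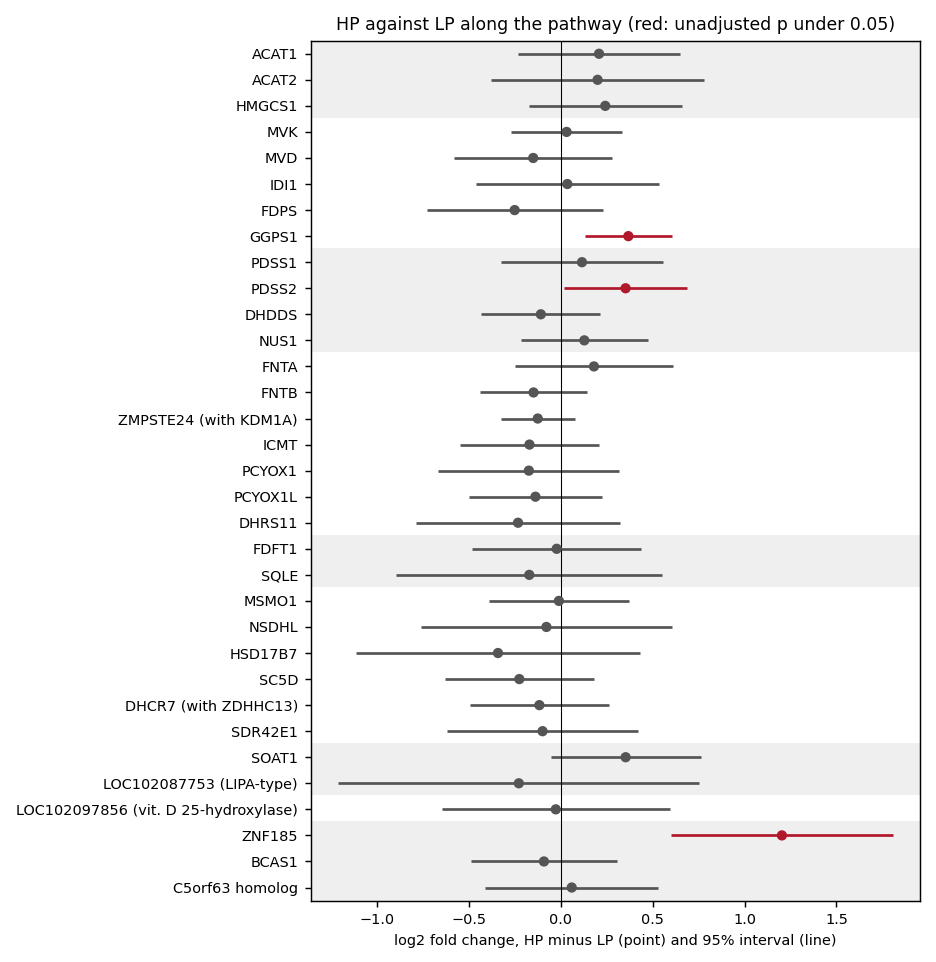
Log2 fold change, HP minus LP, of 33 members with at least 1 CPM in every ovary by edgeR, in the order of the pathway's steps, with 95% intervals and in red an unadjusted p under 0.05. The enzymes between acetyl-CoA and cholesterol lie from -0.34 to 0.24. GGPS1, on the branch to geranylgeranyl diphosphate, lies at 0.37, and ZNF185 stands apart at 1.20.

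The trunk of the pathway begins with 5 members that lead to mevalonate. HMGCS1, the cytosolic synthase that makes HMG-CoA, was at 76.4, 56.6 and 88.3 CPM in HP1, HP2 and HP3, and at 65.8, 57.2 and 64.2 CPM in LP4, LP5 and LP6. HP2 had the lowest and HP3 the highest level, so that the LP ovaries lay within the HP range. The log2 fold change of HMGCS1 was 0.24 (95% interval -0.18 to 0.66, Benjamini-Hochberg adjusted p = 0.732 by edgeR's quasi-likelihood test). Without HP2 it was 0.40 and passed an unadjusted p of 0.05 by edgeR, and without HP3 it was 0.0925 and did not.

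ACAT1 and ACAT2, thiolases that join acetyl-CoA units, had log2 fold changes of 0.21 (adjusted p = 0.781 by edgeR) and 0.20 (adjusted p = 0.843), with levels of 43.9 to 72.3 CPM and 13.0 to 23.5 CPM over the 6 ovaries.

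The 6 members from mevalonate to the prenyl diphosphates gave 1 call, at the branch to geranylgeranyl diphosphate. GGPS1 makes geranylgeranyl diphosphate, a lipid donor for protein prenylation, and lies between positions 7783184 and 7806130 of scaffold NW_004973497.1 in the Cliv_1.0 build, on the plus strand. Its level was 181, 201 and 197 CPM in the HP ovaries, and 158, 139.9 and 150.5 CPM in LP4, LP5 and LP6. All HP ovaries lay above all LP ovaries. The HP mean was 192.9 ± 10.7 CPM and the LP mean 149.5 ± 9.21 CPM (SD, n = 3), a ratio of 1.29. By edgeR's quasi-likelihood test the log2 fold change was 0.37 (SE 0.10, 95% interval 0.13 to 0.60, adjusted p = 0.572).

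FDPS, which makes farnesyl diphosphate at the fork between sterols and the other products, was at 9.12, 12.5 and 12.1 CPM in HP and at 13.1, 11.5 and 15.4 CPM in LP. HP1 was the lowest ovary, and LP5 lay below HP2 and HP3, so the groups overlapped. Its log2 fold change was -0.25 (95% interval -0.73 to 0.23, adjusted p = 0.756 by edgeR). The kinases and the decarboxylase before it lay close to 0: MVK, the mevalonate kinase, had a log2 fold change of 0.03 at 46.4 to 59.7 CPM, and MVD, the decarboxylase, -0.15 at 14.3 to 21.0 CPM. IDI1, the isomerase of the isoprene units, had 0.04 at 30.6 to 45.5 CPM. PMVK, the kinase between MVK and MVD, was counted at 0.444 to 1.24 CPM, and its log2 fold change of 0.10 had an SE of 0.43.

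The 4 members that build long polyprenyl chains included the second call of the isoprenoid side. PDSS2 and PDSS1 are the subunits of the synthase that makes the side chain of coenzyme Q. PDSS2 (positions 2400703 to 2518409 of scaffold NW_004973554.1, minus strand) was at 64.2, 54.9 and 70.0 CPM in HP and at 56.0, 46.1 and 46.0 CPM in LP. The groups overlapped, because LP4 lay above HP2. The ratio of the means was 1.28, and the log2 fold change 0.35 (SE 0.14, 95% interval 0.02 to 0.69, adjusted p = 0.595 by edgeR's quasi-likelihood test). This call was lost when HP1, HP3, LP5 or LP6 was left out.

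The partner subunit PDSS1 was at 6.46, 6.46 and 5.98 CPM in HP and 6.54, 5.68 and 5.24 CPM in LP. LP4 was the highest of the 6 ovaries, and the log2 fold change was 0.11 (95% interval -0.32 to 0.55), an interval that holds the value of PDSS2. DHDDS and NUS1, the subunits of the synthase of dolichol precursors, had log2 fold changes of -0.11 (adjusted p = 0.847 by edgeR) and 0.13 (adjusted p = 0.832).

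**Figure D2:**
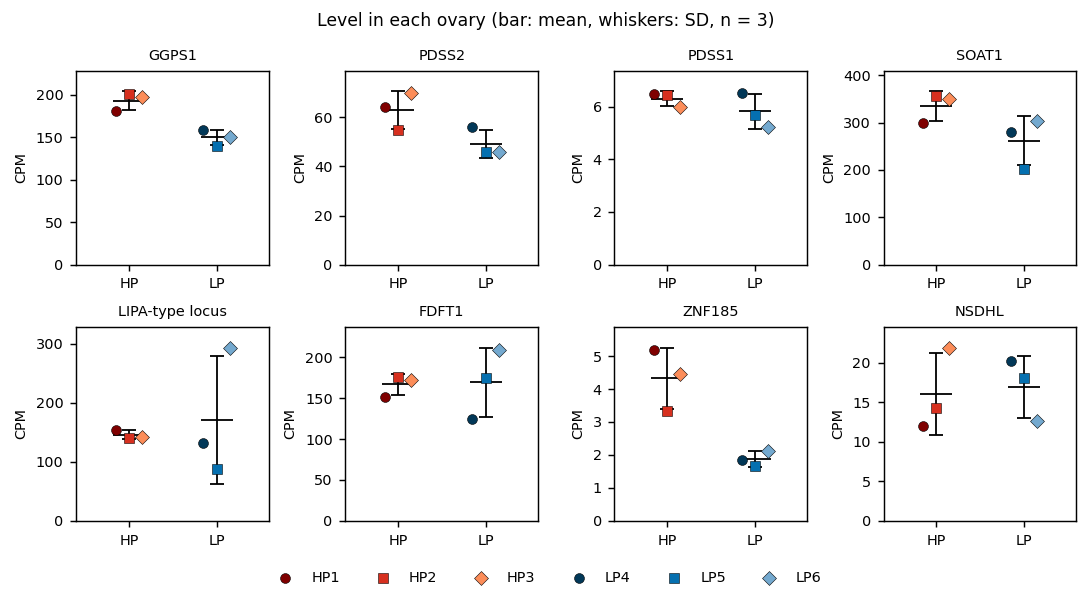
Level in CPM of 8 members in each ovary, with the mean (bar) and SD (whiskers) of 3 ovaries per group. HP and LP points are separate for GGPS1 (181 to 201 against 139.9 to 158 CPM) and ZNF185 (3.34 to 5.18 against 1.66 to 2.12 CPM) and overlap for the others.

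Protein prenylation and the turnover of prenylated proteins held 7 members, of which 6 had a log2 fold change below 0 (median -0.15) and 0 passed an unadjusted p of 0.05 by edgeR. Of all tested loci 49% lay above 0, and 8.24% passed that limit in either direction. The locus of ZMPSTE24, the protease that trims prenylated proteins such as prelamin A, was counted together with its neighbour KDM1A, a histone demethylase, so the reads of each cannot be separated. It was at 78.0, 80.2 and 77.7 CPM in HP and at 86.3, 85.7 and 85.4 CPM in LP. Every HP ovary lay below every LP ovary, and the highest level was 1.11 times the lowest, the narrowest range of the 35 members with at least 1 CPM in every ovary. Its log2 fold change was -0.13 (95% interval -0.33 to 0.08, adjusted p = 0.715 by edgeR). It missed an unadjusted p of 0.05 by edgeR and passed it by the linear model per locus.

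The farnesyltransferase subunits lay on either side of 0, FNTA at 0.18 (adjusted p = 0.808 by edgeR) and FNTB at -0.15 (adjusted p = 0.764). ICMT, which methylates the prenylated cysteine, was at -0.17 with 19.3 to 27.0 CPM. PCYOX1, the lysosomal oxidase of prenylcysteines, and its relative PCYOX1L were at -0.17 and -0.14. DHRS11, a short-chain dehydrogenase, was at -0.23, with its highest level in LP6 (93.6 CPM) and its lowest in LP5 (49.2 CPM).

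On the sterol side, the members from farnesyl diphosphate to cholesterol gave 0 calls by edgeR. The log2 fold change was below 0 in 2 of 2 members up to squalene epoxide and in 6 of 7 tested from lanosterol on. It was above 0 in 3 of 4 tested members to mevalonate, 4 of 6 to prenyl diphosphates and 3 of 4 of the polyprenyl chains. Of all tested loci 49% lay above 0, and 8.24% were called in either direction. Several sterol members lay close to 0, as FDFT1 at -0.02, MSMO1 at -0.01 and NSDHL at -0.08. The counts include SDR42E1, a relative and no enzyme of the step, and leave out LSS, at 0.11 and not a member. This split by step was not tested. FDFT1, the squalene synthase and first committed step to sterols, was at 152, 176 and 172 CPM in HP and at 125, 174 and 209 CPM in LP. The lowest and the highest level were both in LP, with the HP ovaries between them. The log2 fold change was -0.02 (95% interval -0.48 to 0.44), and its sign changed with the ovaries used, between -0.20 and 0.16 when 1 ovary was left out.

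SQLE, the epoxidase that follows and a second control point, was at 12.0, 7.77 and 5.89 CPM in HP and at 11.4, 9.57 and 7.95 CPM in LP. HP1 was the highest and HP3 the lowest ovary, and the LP ovaries lay between them. The log2 fold change was -0.17 (95% interval -0.90 to 0.55). LSS, which closes the ring to lanosterol, is not a member because its KEGG entry in the table is empty, and it was at 37.3, 45.9 and 39.7 CPM in HP and 30.7, 38.7 and 44.5 CPM in LP. Its log2 fold change was 0.11 (adjusted p = 0.886 by edgeR), and the groups overlapped.

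Of the enzymes that turn lanosterol into cholesterol, DHCR7 carries a reduction near the end. Its locus, counted together with ZDHHC13, was at 85.9, 65.3 and 91.2 CPM in HP and at 90.8, 76.5 and 95.5 CPM in LP. HP2 was the lowest ovary, and HP1 and HP3 lay within the LP range. The log2 fold change was -0.12 (95% interval -0.50 to 0.26).

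The demethylation steps before it are carried by MSMO1, NSDHL and HSD17B7, whose log2 fold changes were -0.01, -0.08 and -0.34 (95% interval of the last -1.11 to 0.43).

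NSDHL, the C4 decarboxylase, ranged from 12.0 CPM in HP1 to 21.9 CPM in HP3, and HSD17B7, its partner reductase, from 6.99 CPM to 17.4 CPM in the same ovaries. Both thus had their lowest and their highest level within HP. SC5D, the desaturase before DHCR7, had a log2 fold change of -0.23 (adjusted p = 0.741 by edgeR). SDR42E1, a dehydrogenase relative, had -0.10 at 4.16 to 6.14 CPM. LOC102090956 and LOC102086783, dehydrogenase relatives as well, did not pass the minimum.

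**Figure D3:**
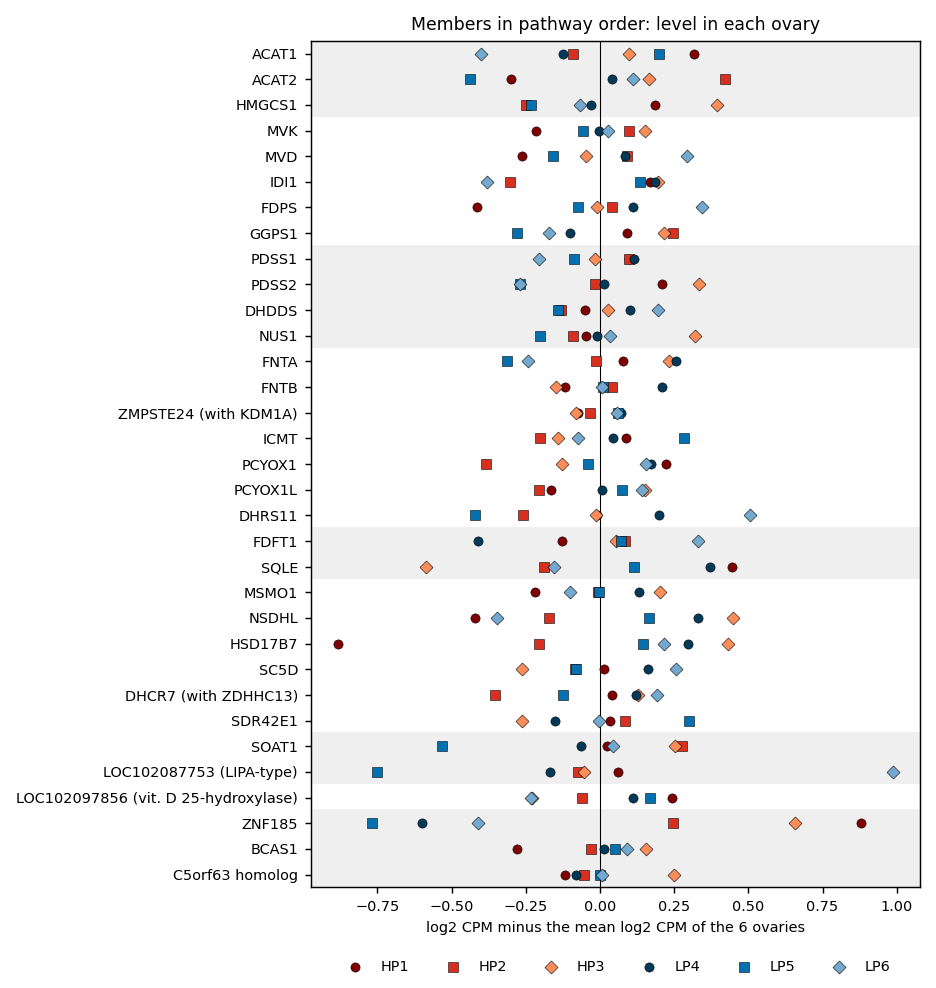
Level of 33 members with at least 1 CPM in every ovary, as the log2 difference of each ovary from the mean of the 6, in the order of the pathway's steps. Over 17 enzymes of that level, GGPS1 and those from acetyl-CoA to cholesterol, the median deviation was lowest in HP1 (-0.13) and highest in HP3 (0.15).

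The spread of the synthesis enzymes was larger between ovaries of 1 group than between the groups. The set held 17 enzymes with at least 1 CPM in every ovary, those from acetyl-CoA to cholesterol and GGPS1 from the branch to geranylgeranyl diphosphate. Their median deviation from the mean of the 6 ovaries on the log2 scale was -0.13 for HP1, -0.08 for HP2 and 0.15 for HP3. For the LP ovaries it was 0.11 (LP4), -0.06 (LP5) and 0.03 (LP6). HP3 was the highest ovary for 7 of the 17 enzymes and the lowest for 3, and HP1 was the lowest for 6 and the highest for 2. The HP extremes thus lay on opposite sides of the LP ovaries. Over the 19688 loci of that level, HP3 was highest in 3398 and HP1 lowest in 2593, with median deviations of -0.004 and 0.01. Summed granulosa markers, 11 loci of 5 of 6 symbols, were also lowest in HP1 (666 CPM, against 965 to 1215 CPM in the others). Within that list AMH was lowest in HP1 (153 CPM, against 371 to 604 CPM) while FSHR was highest there (23.4 CPM, against 10.5 to 16.7 CPM at its larger locus). The part of these markers in the result was not tested.

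Most members varied little. The highest level was less than 2 times the lowest in 31 of the 35 members with at least 1 CPM in every ovary, with a median ratio of 1.47, against 1.61 over the 19688 loci of that level. The widest range of these members, 3.33-fold, was that of an acid lipase locus on the ester side of the pathway. Levels were not ranked between members, because the lengths implied by the counts and FPKM were out of scale for several: 0.164 kb for MSMO1, and 31.1 kb for SQLE on a locus of 20.4 kb.

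Sterol esters are made by SOAT1 and broken down by acid lipase. SOAT1, the acyltransferase that stores cholesterol in lipid droplets, was at 299, 355 and 350.1 CPM in HP and at 281, 203 and 302 CPM in LP. LP5 was lowest, and LP6 lay above HP1, so the groups overlapped by that pair. In the fit over all loci its log2 fold change was 0.35 (SE 0.17, 95% interval -0.06 to 0.76, adjusted p = 0.631 by edgeR's quasi-likelihood test). Without LP6 it was 0.47 and passed an unadjusted p of 0.05, and without LP5 it was 0.20 and did not.

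The acid lipase locus, LOC102087753 with LOC102087576 (positions 270639 to 299904 of scaffold NW_004973281.1, minus strand), belongs to the family of lysosomal acid lipase, which frees cholesterol from lipoprotein esters. It was at 154, 140.5 and 142 CPM in HP and at 132, 87.8 and 293 CPM in LP. LP6 was 1.9 times the next highest ovary and LP5 the lowest of all, while the HP ovaries lay close together. HP minus LP was -0.23 on the log2 scale (95% interval -1.21 to 0.75, adjusted p = 0.902 by edgeR), and without LP6 it was 0.41. The macrophage markers CSF1R and MARCO summed to 184 CPM in LP6, against 131 to 252 CPM in the other ovaries. CD163, also on that list, was not matched by name. The part of macrophages in the level of the lipase locus was not tested.

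Its 3 relatives under the same KEGG entry on that scaffold, LOC102083781, LOC102087031 and LOC102083961, were at or below 0.516 CPM in every ovary, and LOC102083961 was the last of the 4 members under the minimum. The bile salt-activated lipase loci LOC102095721 and LOC102095473 were at or below 0.565 CPM. Over the 4 of these loci that were tested the 95% intervals of the log2 fold change reached from -5.23 to 3.63, each holding 0, and 9 members in all had no more than 56 counts in any ovary.

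The vitamin D enzymes stand on the steroid map because vitamin D is made from the sterol that DHCR7 reduces. The 24-hydroxylase locus LOC102098516, whose enzyme inactivates 1,25-dihydroxyvitamin D and is known from the kidney of vertebrates, lies between positions 6598930 and 6607667 of scaffold NW_004973200.1 on the plus strand. Its counts were 12, 1621 and 22 in the HP ovaries (HP2 the 1621) and 0, 10 and 23 in the LP ovaries. HP2 alone was high, at 16.1 CPM or 74.9 times the next highest ovary, and HP1 and HP3 lay within the LP range. By edgeR's quasi-likelihood test the log2 fold change was 5.67 (SE 2.22, adjusted p = 0.595). Without HP2 it was 0.59 and missed an unadjusted p of 0.05, so the call rests on HP2. The call was also lost without LP4, LP5 or LP6, by limma and by the linear model per locus. It held in 5 of 12 refits.

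HP2 was also the ovary with the highest kidney markers, and their part in the result was not tested. Summed kidney markers, from 7 of 10 symbols, were at 99.3 to 606 CPM in HP and 73.5 to 113 CPM in LP, with NPHS1, UMOD and SLC22A6 not matched by name. SLC12A1 and CUBN were higher in HP at an unadjusted p under 0.05 by edgeR (adjusted p = 0.594 and adjusted p = 0.592). These are 2 of 8 kidney loci, against 4.74% of all tested loci called higher. SLC12A1 was at 19.9 CPM in HP2 and at most 0.618 CPM in any other ovary. CUBN was at 92.2 CPM in HP2, 37.8 and 28.6 CPM in HP1 and HP3, and 14.4 to 29.3 CPM in LP. LRP2 alone gave 396 CPM of the HP2 sum. The 25-hydroxylase locus LOC102097856 was at 1.40 to 1.95 CPM with a log2 fold change of -0.03. The 1α-hydroxylase locus LOC106146061, which activates vitamin D, had 0 to 17 counts.

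**Figure D4:**
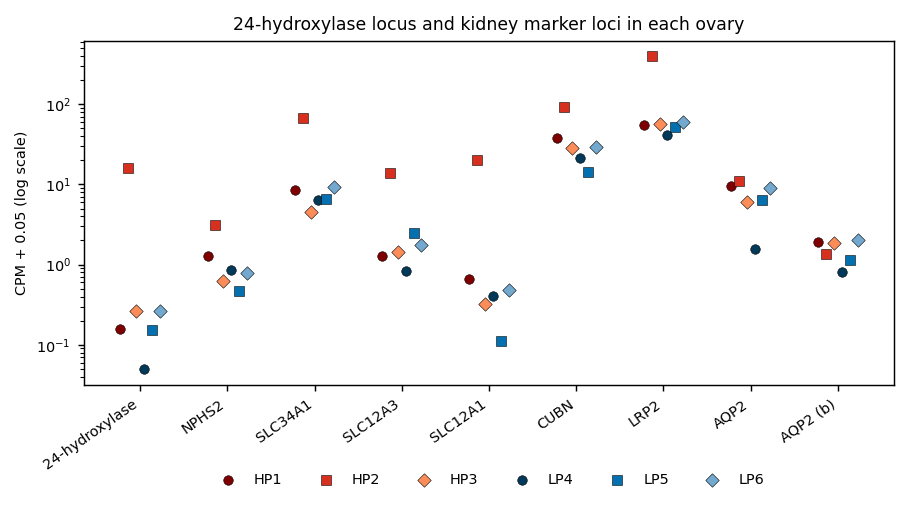
Level of the 24-hydroxylase locus and of the kidney marker loci in each ovary, as CPM + 0.05 on a log axis. HP2 is the highest point of the hydroxylase (16.1 CPM) and of most kidney loci, which sum to 606 CPM in HP2.

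ZNF185 had the lowest p of the members, yet its description names a zinc finger protein and not an enzyme. It carries the KEGG entry of NSDHL, which lies 7012 bases away on the same strand of scaffold NW_004973178.1 (ZNF185 at 356791 to 409749 and NSDHL at 416762 to 430620). ZNF185 was at 5.18, 3.34 and 4.45 CPM in HP and at 1.86, 1.66 and 2.12 CPM in LP. Every HP ovary lay above every LP ovary, a ratio of means of 2.30. The ZNF185 locus overlaps another locus on the other strand, so its reads may be shared. HP minus LP, the log2 difference was 1.20 (SE 0.25, 95% interval 0.60 to 1.81, adjusted p = 0.551 by edgeR's quasi-likelihood test). NSDHL itself, at 12.0 to 21.9 CPM, overlapped between the groups. BCAS1, 26681 bases from the 24-hydroxylase and under its KEGG entry, had a log2 fold change of -0.09, and CUNH5orf63 0.06.

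The regulators of the sterol branch were set beside the members. Of 14 symbols of the SREBP system 13 were matched and tested, with a median log2 fold change of 0.06. At an unadjusted p under 0.05 by edgeR 0 were higher and 1 was lower in HP. Of all tested loci 4.74% were called higher and 3.5% lower. SREBF1 was at -0.05, the SREBF2 locus with CCDC134 at 0.32 (95% interval -0.56 to 1.20) and INSIG1, which retains the SREBP complex in the endoplasmic reticulum, at 0.06. The lower locus was RNF139, a sterol-regulated ubiquitin ligase, at 0.309, 0.347 and 0.411 CPM in HP and at 0.578, 4.36 and 87.8 CPM in LP. LP6 was far above the other ovaries, and the log2 fold change was -6.44 (adjusted p = 0.573 by edgeR). Without LP6 it was -2.79, still past an unadjusted p of 0.05 by edgeR. Of the LP ovaries left, LP5 had 432 counts and LP4 had 56, against 34 to 43 in HP. The RNF139 locus overlaps 2 others, so its reads may be shared.

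For sterol uptake, transport and efflux, 12 of 13 symbols matched 14 loci, with 0 higher and 1 lower and a median of -0.08. The shares called over all tested loci were 4.74% higher and 3.5% lower. NR1H3, the oxysterol receptor LXR alpha that turns on cholesterol efflux genes, was at 168, 187 and 227 CPM in HP and at 279, 280.5 and 253 CPM in LP. All HP ovaries lay below all LP ovaries, as in 7.17% of all tested loci. Between the groups the log2 difference was -0.48 (SE 0.14, adjusted p = 0.572 by edgeR's quasi-likelihood test). ABCA1 and ABCG1, efflux pumps under the control of LXR in mammals, had values of -0.04 and -0.12, neither past an unadjusted p of 0.05.

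STAR, which brings cholesterol to the mitochondrial enzyme that starts steroid hormone synthesis, was at 7.08, 6.01 and 10.6 CPM in HP and at 6.61, 14.5 and 10.6 CPM in LP. The groups overlapped, and the log2 fold change was -0.42 (95% interval -1.25 to 0.41). The makers of prenylated proteins and quinones outside the maps gave 5 tested loci and 0 calls, with a median of 0.06. Of all tested loci 8.24% were called in either direction. RABGGTB, a subunit of the enzyme that attaches the product of GGPS1 to Rab proteins, was at 0.16 (adjusted p = 0.766 by edgeR).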

How the data were processed

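Reads were cleaned with Cutadapt 1.9, checked with FastQC 0.10.1, mapped to Cliv_1.0 with HISAT2 2.0.4 and assembled with StringTie 1.3.4, per the submitters' processing notes. The authors deposited whole-number counts and FPKM values for each locus. In HP1, HP2 and HP3 the counts sum to more than the raw reads that the paper gives for that ovary. They are thus not plain numbers of mapped reads each counted once, although the tests treat them as counts. How the counts were made, and whether strand was used, is not given in the sources used here. Of the members 17 overlap another locus, 15 of them on the other strand, and 4 are merged loci, so their reads may be shared. Value columns left out: 0.

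Counts of the 28274 loci whose mean FPKM reached 0.1 were tested in R 4.3.3 with edgeR 4.0.16 (TMM, quasi-likelihood, two-sided, 3 HP against 3 LP, no covariates), adjusted by Benjamini-Hochberg. Alternatives were DESeq2 1.42.0, limma 3.58.1, a linear model on log2(FPKM + 1), other scaling and filters, and leaving out each ovary. Only the linear model held a covariate, the sum of the lower log2(FPKM + 1) values of each ovary. The fits were tested on simulated data, whose spread followed the trend over all loci and not each locus's own. There edgeR left part of the planted changes uncalled at an adjusted p under 0.05, so a missed call does not show that a member is unchanged. The planted changes were larger on the log2 scale than those of all tested members but LOC102098516. Changes as small as those of most members were not simulated. Python 3.11.15 was used for the rest.

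Values in every ovary were given for members with unadjusted p under 0.05 or groups that do not overlap, for rate-setting and branch enzymes, and for the widest range. CYP51A1 was not matched by name. Members and lists were chosen with earlier results of these data known. The restriction to members described as enzymes was made after the table was seen. The labels name no batch, and another sequencer than the methods. Some members are counted in the totals and medians but not reported here by name.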

Additional observations from a re-analysis of the deposited data

How the results depend on the processing

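The count of 4 members at p under 0.05 was 2 by limma on log2(FPKM + 0.1) and 6 by the linear model per locus. The count of 2 that also passed the fold limit was 1 by DESeq2, by limma with either pseudocount (1 or 0.1) and by the linear model per locus. It was 1 as well among the 27 tested members that overlap no other locus, and 1 among the 36 described as enzymes, a restriction chosen after seeing the data. ZNF185 is in neither of these sets. The count at an adjusted p under 0.05 was 1 by DESeq2 (ZNF185, adjusted p = 0.00459), which gave no p for LOC102098516. The median log2 fold change of -0.05 became 0.038 by limma with a pseudocount of 0.1 and 0.065 by the linear model. When 1 ovary was left out, these counts were 3 to 4 at p under 0.05 and 1 to 2 with the fold limit, and the median was -0.07 to -0.01.

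Over 155 alternatives for 12 named members, 129 kept direction and side of the limit, 11 lost the call, 4 gained it (HMGCS1 by the linear model and without HP2, ZMPSTE24 by the linear model, SOAT1 without LP6) and 11 changed sign, none of the last for GGPS1, PDSS2 or ZNF185. FDFT1 was 0.0496 and 0.0498 by limma with pseudocounts of 1 and 0.1, 0.0635 by the linear model, 0.04 without HP1 and 0.16 without LP6 (range -0.20 to 0.16 with 1 ovary left out). SQLE was 0.0376 without HP3 (-0.50 to 0.0376). DHCR7 was 0.18 by the linear model and 0.0151 without HP2 (-0.21 to 0.0151). The acid lipase locus was 0.34 by the linear model and 0.41 without LP6 (-0.54 to 0.41). LOC102098516 was -0.23 by the linear model (0.59 to 6.72 with 1 ovary left out). The linear model holds a covariate per ovary, and limma on log2(FPKM + 1), which holds none, gave 1.58 for this locus. The cause was not tested. GGPS1 (0.32 to 0.42, adjusted p 0.132 to 0.902) and ZNF185 (0.44 to 1.36, adjusted p 0.00459 to 0.849) stayed at p under 0.05 in all 13 refits, and PDSS2 in 8. RNF139 (adjusted p 0.00855 to 0.957 over 13 refits) missed an unadjusted p of 0.05 by limma and the linear model. NR1H3 (adjusted p 0.168 to 0.902) missed it by the linear model.

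No paired analysis was made, because neither the labels nor the methods pair an HP bird with an LP bird. With 3 ovaries a group, the SE by edgeR was 0.08 to 0.41 for members with at least 1 CPM in every ovary. It draws in part on the spread of other loci, so it is not the spread of that member between ovaries alone.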
